A study of Mus musculus with 16 samples.

Results

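The genes described here are the voltage-gated and other ion channel genes that C2C12 muscle cells expressed above a fixed level. They were chosen by gene symbol and by measured level. The symbol had to begin as a voltage-gated potassium, sodium or calcium channel gene, a chloride channel gene of the Clcn family, a TRP channel gene, a Piezo gene or an Hcn gene, and the normalized count had to reach 10 in at least 4 of the 16 samples. Of the 31053 genes in the table, 162 matched by symbol and were considered, and 28 of these reached the level. C2C12 is a mouse myoblast line that fuses into multinucleated myotubes. mRNA was sequenced from 4 groups with 4 biological replicates each: wild-type (WT) myoblasts, WT myotubes, Fam134b knockout (Fam134bKO) myoblasts and Fam134bKO myotubes. Fam134b encodes a receptor for ER-phagy, the autophagic turnover of the endoplasmic reticulum. The knockout line was made with CRISPR-Cas9 delivered by lentivirus and selected with antibiotic, so genotype cannot be told apart from the history of that line, and the sources used here do not say whether it is 1 clone. All cells were grown in the same DMEM medium with 10% serum, and the labels name no other agent. Myotubes came from the same cells left to differentiate, and the labels give no day. The groups come from the sample titles, since the genotype field of the labels reads unknown.

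Ion channels set the membrane potential of muscle and carry the signals that link excitation to contraction. Sodium channels carry the action potential, potassium channels and chloride channels return the membrane to rest, and a voltage-gated calcium channel complex in the transverse tubules couples depolarisation to calcium release from the sarcoplasmic reticulum. Myoblasts also hyperpolarise through potassium channels before they fuse, and intracellular chloride exchangers help to acidify endosomes and lysosomes.

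The 4 groups held 1484750 to 3287461 reads counted on genes per sample, with both of the shallowest libraries among Fam134bKO myotubes. Values below are normalized counts, which compare samples for 1 gene and not levels between genes, and 3 reads in a library correspond to 2.49 to 5.99 normalized counts. Fam134b itself was 207 ± 42.0 (SD, n = 4) in WT myoblasts and 27.5 ± 5.49 in Fam134bKO myoblasts, and 232 ± 61.6 against 41.8 ± 14.02 in myotubes, with no overlap between genotypes at either stage. The 7 measured myotube markers, which include Myog, Myh3 and Ckm, had sums of 1541 to 2296 in WT myoblasts against 14.2 to 22.4 in Fam134bKO myoblasts, and of 22650 to 34499 in WT myotubes against 9584 to 12645 in Fam134bKO myotubes. The 6 myoblast markers summed to 1002 to 1487 in WT and 262 to 366 in Fam134bKO myoblasts, and to 2699 to 3232 and 893 to 1192 in the respective myotubes. The summed muscle markers thus did not overlap between genotypes at either stage, but not every marker followed. In myotubes Myh3, Ckm, Tnnc2 and Mylpf were called lower in Fam134bKO cells. Myog (-0.51), Acta1 (-0.79) and Myh1 (-0.25) were not called there (limma, adjusted p = 0.0892, 0.0521 and 0.768). Myh1 was not called in myoblasts either (-1.41, limma, adjusted p = 0.0646). Myf5 was called at neither stage (0.68 and -0.21, limma, adjusted p = 0.0955 and 0.615). The proliferation markers summed to 3049 to 3746 in WT and 2362 to 4161 in Fam134bKO myoblasts. In myotubes they summed to 1668 to 2732 in WT and 711 to 1201 in Fam134bKO cells, without overlap. The fibroblast markers summed to 2260 to 4592 in WT myoblasts and 10007 to 16317 in WT myotubes. The respective Fam134bKO sums were 3023 to 11545 and 12295 to 24910. The part of all these markers in the channel differences was not tested. Of the markers of other cell types, the summed endothelial list stayed at or below 1.94 in every sample, and Rbfox3 of neurons, Sox10 of glia, Nppa of cardiomyocytes and Ptprc of leukocytes were at 0 throughout. Other genes of these lists did differ between genotypes. Nkx2-5 of the cardiomyocyte list averaged 3.24 in WT and 57.0 in Fam134bKO myoblasts (limma, log2 difference 3.91, adjusted p = 7.16e-06), and was higher by 3.11 in Fam134bKO myotubes (limma, adjusted p = 0.000164). Of the neuronal list, Map2 was higher in Fam134bKO cells by 1.12 and 1.65 at the 2 stages (limma, adjusted p = 0.000231 and 4.25e-06), and Stmn2 fell by 1.11 and by 1.55 (limma, adjusted p = 2.75e-06 and 9.84e-08). The part of these in the channel differences was not tested. In bulk RNA, fewer cells expressing a gene and less RNA per cell cannot be told apart.

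Most channel genes of the searched families lay below the level. Of the 134 matching genes that did not reach it, 52 had no read in any sample and 123 were under 10 in every sample. None of the 15 inward rectifier potassium channel genes and none of the 4 Hcn genes reached it, against 2 of 11 accessory voltage-gated potassium channel genes, 4 of 12 calcium-activated and 3 of 14 K2P leak potassium channel genes. For calcium channels, 1 of 9 pore genes and 3 of 8 accessory genes passed. Among the remaining families, 5 of 7 Clcn genes, 3 of 21 TRP genes and both Piezo genes passed. A further 9 genes match only by the start of their symbol, and 2 of these passed. The 2 that passed encode no channel: Kcnq1ot1, a long non-coding RNA, and Trpc4ap, a TRP channel binding protein. At the level in all 16 samples were 16 members.

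Of the genes that fell just short, 4 reached 10 in 3 samples, namely Scn4a, Scn7a, Cacnb2 and Kcnd1. Scn4a encodes the sodium channel of adult skeletal muscle. Its normalized counts were 31.9, 9.90, 27.0 and 17.8 in WT myotubes, at most 1.78 in WT myoblasts, 0 in every Fam134bKO myoblast sample and 1.94, 7.30, 0.8997 and 1.998 in Fam134bKO myotubes. The related Scn7a was 21.6, 8.10, 27.9 and 32.7 in WT myotubes and at most 5.84 in every other sample. Both were therefore highest in WT myotubes, with no overlap with any other group, and neither was tested because of the level rule. At the other side of the rule, Kcnmb1 was a member through the 4 Fam134bKO myoblast samples alone (15.9 to 33.0) and Kcnk12 through 4 WT samples. Kcnab3 and Kcnf1 reached 10 in WT samples alone. Kcnc2 reached 10 in all 4 Fam134bKO myotube samples, but in only 1 WT myotube and 1 Fam134bKO myoblast sample. Differences of these genes in the direction of the samples that admitted them are partly fixed by the choice, and counts over the members are given as descriptions. The muscle chloride channel gene Clcn1, the T-type calcium channel gene Cacna1h and the inward rectifier gene Kcnj11 each stayed at or below 1.98 in every sample. Another inward rectifier gene, Kcnj2, ranged from 1.80 to 11.2 in WT myotubes and was 3.87, 0, 0 and 0 in Fam134bKO myotubes.

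**Figure D1:**
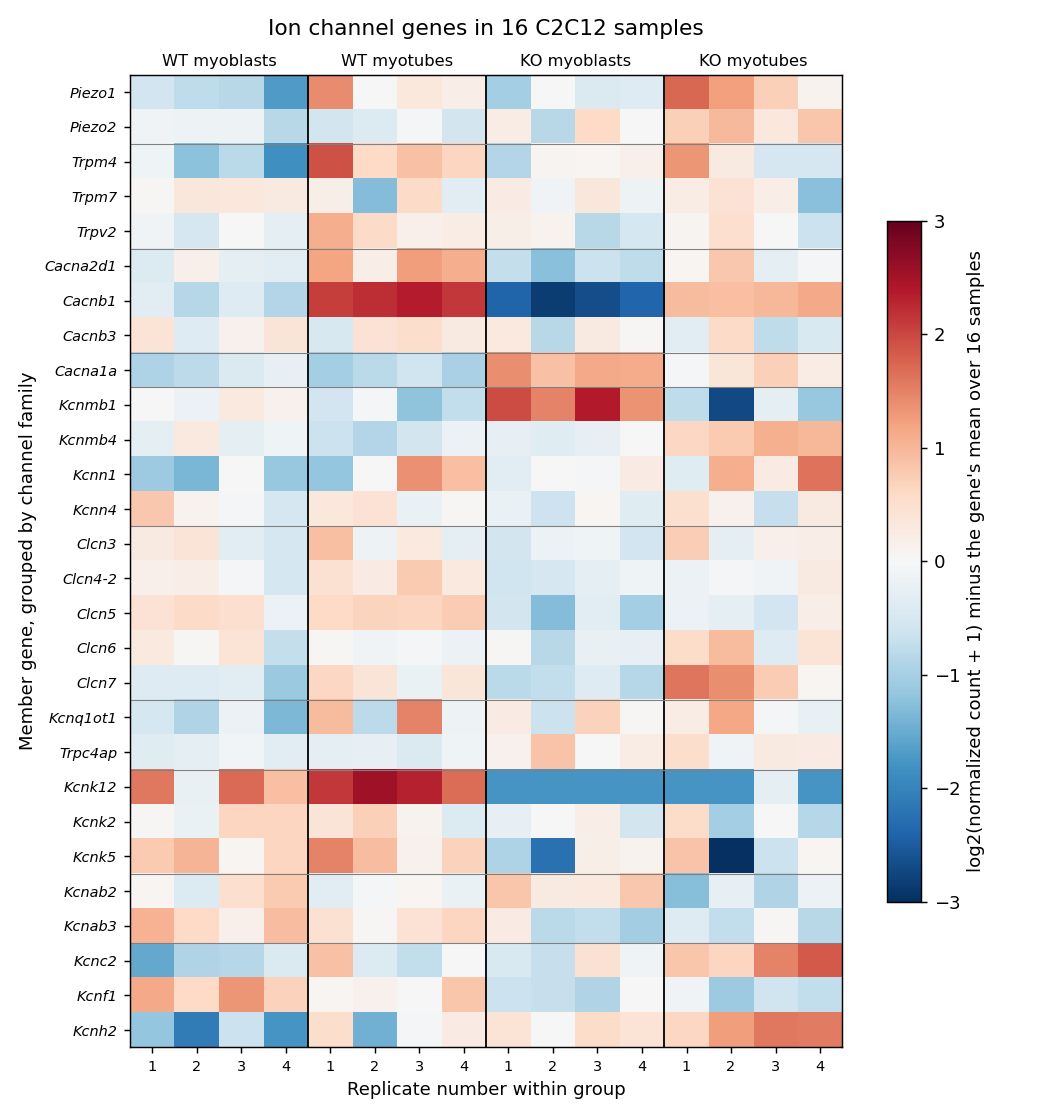
Heat map of the 28 member genes (vertical axis, lines divide the families) in the 16 samples (horizontal axis, replicate number within each group). Colour gives log2(normalized count + 1) minus the gene's mean over all samples, with the scale ending at -3 and 3, so that values beyond these share the end colours. Cacnb1 is high in both myotube groups, Kcnk12 is low in Fam134bKO samples, and Kcnmb1 is high in Fam134bKO myoblasts.

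On differentiation, more members rose than fell in both genotypes, by a margin that in WT cells depended on the normalization. In WT cells 6 of the 28 members (21.4%) rose and 0 fell by limma at an adjusted p under 0.05, where 13.8% of all 10767 genes tested rose and 9.16% fell. A single member was lower at an unadjusted p under 0.05. Leaving out 1 sample at a time gave 4 to 7 members. With quantile normalization 4 members were higher and 3 lower in WT myotubes, with Clcn7 and Kcnh2 no longer called and Kcnmb1, Kcnf1 and Kcnmb4 called as lower. In Fam134bKO cells 8 members rose (28.6%) and 3 fell (10.7%), against 17.3% and 16.1% of all genes. The median log2 change of the members was 0.21 in WT and 0.35 in Fam134bKO cells, where the median of all genes was -0.01 and -0.02. Cacnb1, Cacna2d1, Clcn7 and Piezo1 rose in both genotypes.

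Between genotypes, channel genes differed in both directions. In myoblasts 4 members were higher (14.3%) and 5 lower (17.9%) in Fam134bKO cells, against 7.26% and 8.5% of all genes, and in myotubes 6 were higher (21.4%) and 4 lower (14.3%), against 9.74% and 13.7%. A fit of the 8 myotube samples alone called 3 higher and 3 lower in myotubes. Its calls over all genes also fell, from 23.4% in the main fit to 14.5%. Kcnk12, Cacnb1 and Clcn5 were called lower at both stages, and Kcnh2, Cacna1a and Trpc4ap were called higher at both. The median log2 difference of the members was -0.15 in myoblasts, also with Kcnk12 set to its bound, and -0.27 in myotubes, where all genes had medians of -0.01 and -0.07. A test of whether the change on differentiation itself differed between genotypes (the interaction) called 1 member, Kcnmb4, whose change was the more positive in Fam134bKO cells, and 0 members with the more negative change there, against 1.97% and 1.48% of all genes. At an unadjusted p under 0.05 it held 3 members with the more positive and 2 with the more negative change. Without Fam134bKO myotube replicate 1 or replicate 3 it called 2 members each, adding Trpm4 and Kcnmb1 respectively. In all, 17 members were called in at least 1 of the 5 comparisons and 11 in none. The matching share of all genes was not counted, so this is a description of the members alone. Each pairwise comparison by itself called 15.8% to 33.4% of all genes.

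**Figure D2:**
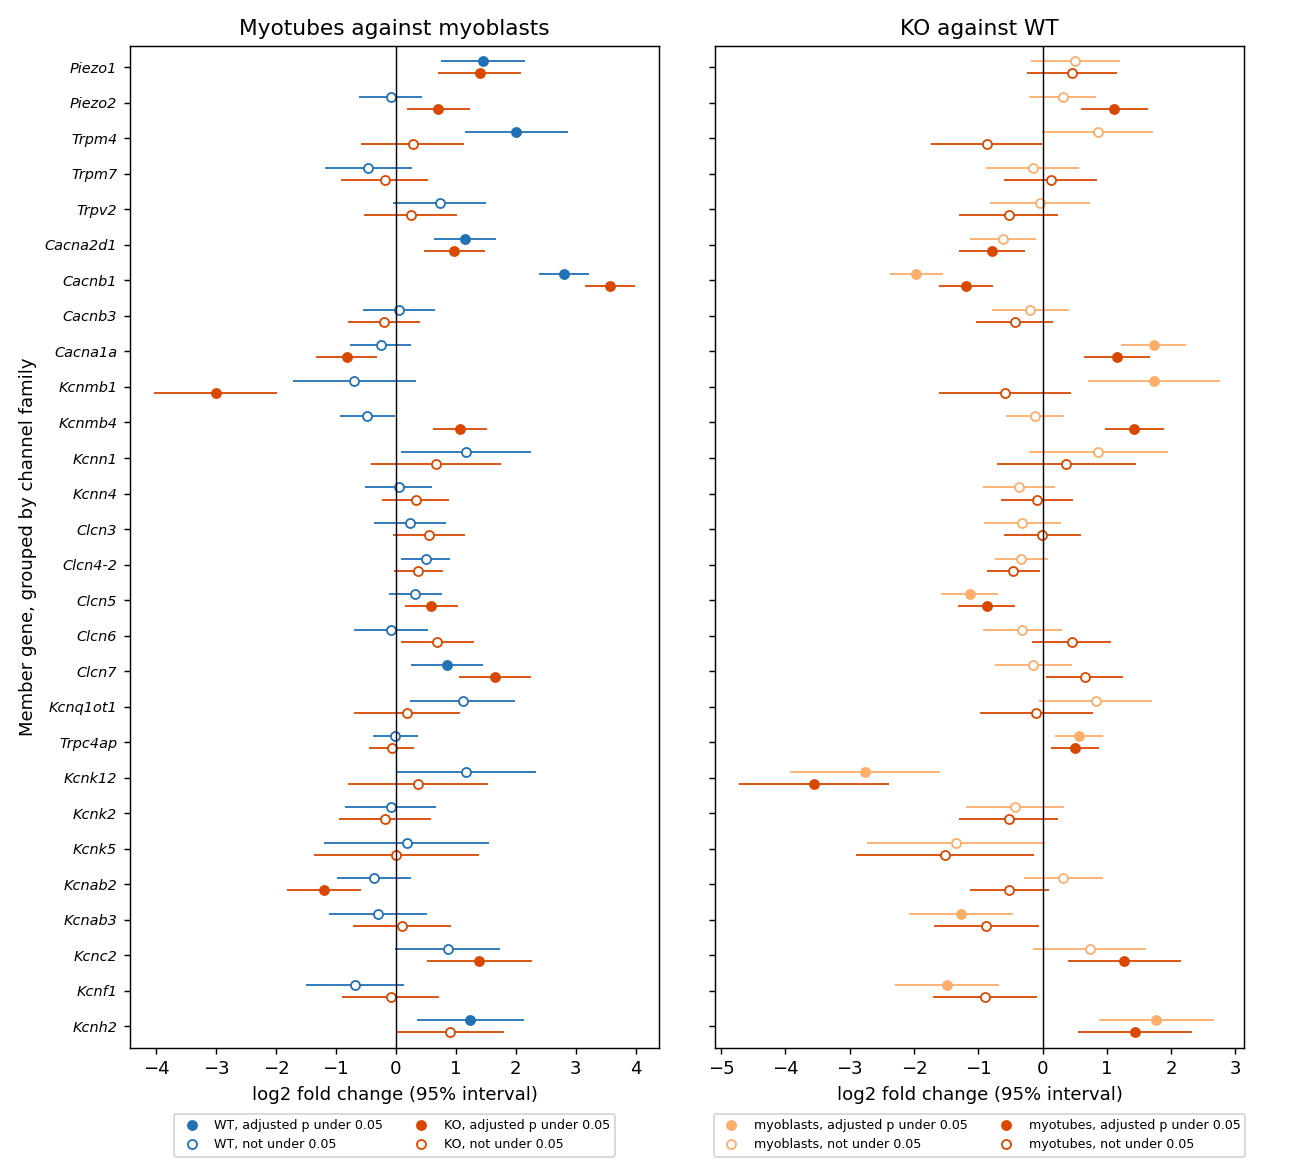
log2 fold change (horizontal axis) with its 95% interval for each member (vertical axis), for myotubes against myoblasts in WT and Fam134bKO cells on the left and for Fam134bKO against WT in myoblasts and myotubes on the right. Filled points passed an adjusted p of 0.05 in limma. Cacnb1 lies farthest to the right in both genotypes on the left, and Kcnk12 lies farthest to the left on the right.

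Of the calcium channel genes, the accessory subunits Cacnb1 and Cacna2d1 rose with differentiation and were lower in Fam134bKO myotubes. Cacnb1 encodes the beta1 subunit, which places the channel in the muscle membrane and is required for excitation-contraction coupling. It is on chr11:98001508-98023034 (mm10, minus strand). Its normalized counts were 48.0, 32.8, 46.0 and 32.1 in WT myoblasts and 257, 282, 310.4 and 265 in WT myotubes. In Fam134bKO cells they were 10.5, 7.47, 8.68 and 10.8 in myoblasts and 118, 114, 121 and 134 in myotubes. The 4 groups did not overlap. The log2 change on differentiation was 2.80 ± 0.20 (SE) in WT (limma, adjusted p = 1.82e-09) and 3.57 ± 0.20 in Fam134bKO cells (limma, adjusted p = 1.01e-11). Against WT, Cacnb1 fell by 1.96 ± 0.20 on the log2 scale in Fam134bKO myoblasts (limma, adjusted p = 2.14e-07) and by 1.19 ± 0.20 in Fam134bKO myotubes (limma, adjusted p = 0.000213). The difference between the 2 rises was 0.77 (95% interval 0.19 to 1.36, limma, adjusted p = 0.145) and was not called.

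Cacna2d1 encodes the alpha2delta-1 subunit, an extracellular protein that raises the amount of channel at the surface. It lies on chr5:15934691-16374511 (mm10, plus strand). Its normalized counts were 108, 159, 116 and 113 in WT myoblasts and 328, 165, 341 and 304 in WT myotubes. They were 87.5, 59.8, 91.1 and 84.3 in Fam134bKO myoblasts and 149, 252, 118 and 139.9 in Fam134bKO myotubes. Every myotube sample lay above every myoblast sample of its genotype, while the myotube groups of the genotypes overlapped. The log2 change was 1.15 ± 0.25 in WT (limma, adjusted p = 0.00201) and 0.98 ± 0.25 in Fam134bKO cells (limma, adjusted p = 0.00442). The difference in myotubes, -0.79 ± 0.25 (limma, adjusted p = 0.0245), was no longer called when any of WT myotube replicates 1, 3 or 4 or Fam134bKO myotube replicates 3 or 4 was left out (adjusted p = 0.0547 to 0.0864, log2 difference -0.74 to -0.65). In myoblasts it was -0.62 (limma, adjusted p = 0.101).

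The other calcium channel members behaved differently. Cacna1a encodes the pore of the P/Q-type channel known from presynaptic terminals. It measured 17.5, 19.3, 25.02 and 28.5 in WT myoblasts and 91.0, 63.9, 76.3 and 74.2 in Fam134bKO myoblasts. In myotubes it measured 16.4, 18.9, 22.3 and 16.8 in WT and 32.9, 43.8, 56.7 and 39.96 in Fam134bKO cells. All 8 Fam134bKO samples lay above all 8 WT samples. The difference was 1.73 ± 0.25 on the log2 scale in myoblasts (limma, adjusted p = 2.09e-05) and 1.16 ± 0.25 in myotubes (limma, adjusted p = 0.00161). On differentiation Cacna1a fell by 0.82 ± 0.25 in Fam134bKO cells (limma, adjusted p = 0.0137), a call lost without Fam134bKO myoblast replicate 1 (-0.73, adjusted p = 0.0544). Cacnb3, which encodes another beta subunit, ranged from 311 to 830.3 over all samples and passed the test in no comparison, with log2 differences between -0.43 and 0.05 in the 4 pairwise comparisons.

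The sequences before the transcription start are shown for the genes that rose in both genotypes and have an entry among RefSeq promoters (GRCm38.p6, the same assembly as mm10), so that the word CANNTG can be seen in place. This word, the E-box, reads the same on both strands and is bound by the basic helix-loop-helix factors of the muscle lineage, among others. Each line holds the 250 bases before 1 annotated start, 5′ to 3′ on the strand of the gene, with every E-box in capitals. Another start of Cacnb1 and another of Clcn7 are not shown.
Cacnb1, chr11:98018373-98018622, minus strand: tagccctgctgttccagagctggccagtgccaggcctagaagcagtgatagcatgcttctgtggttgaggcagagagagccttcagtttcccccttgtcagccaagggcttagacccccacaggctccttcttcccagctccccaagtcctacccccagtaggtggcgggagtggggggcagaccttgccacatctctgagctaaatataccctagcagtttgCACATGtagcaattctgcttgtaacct
Cacna2d1, chr5:15934441-15934690, plus strand: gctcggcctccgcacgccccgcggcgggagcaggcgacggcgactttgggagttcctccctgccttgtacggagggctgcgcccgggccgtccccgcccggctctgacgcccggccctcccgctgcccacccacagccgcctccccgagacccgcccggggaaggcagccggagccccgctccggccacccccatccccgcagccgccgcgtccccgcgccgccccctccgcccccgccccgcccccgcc
Clcn7, chr17:25133141-25133390, plus strand: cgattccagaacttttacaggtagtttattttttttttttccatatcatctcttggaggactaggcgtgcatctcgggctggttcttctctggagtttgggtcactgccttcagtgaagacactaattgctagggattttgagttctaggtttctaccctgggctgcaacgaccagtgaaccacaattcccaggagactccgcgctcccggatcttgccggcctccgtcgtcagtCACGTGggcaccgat
Piezo1, chr8:122551330-122551579, minus strand: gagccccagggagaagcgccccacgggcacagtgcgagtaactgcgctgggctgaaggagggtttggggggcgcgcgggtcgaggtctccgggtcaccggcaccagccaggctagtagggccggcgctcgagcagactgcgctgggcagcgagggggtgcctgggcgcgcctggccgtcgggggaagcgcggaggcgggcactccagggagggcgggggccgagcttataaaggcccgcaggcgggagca
The shown starts of Cacnb1 and Clcn7 hold 1 E-box each, and the other 2 windows hold none. The start of Cacnb1 that is not shown holds 0 in its window, and that of Clcn7 holds 1. GC content was 56% for Cacnb1, 82.4% for Cacna2d1, 50.4% for Clcn7 and 74% for Piezo1. By symbol, 23 members had 39 promoter entries, of which 28 (71.8%) held an E-box in the same window, against 66.2% of all 32851 mouse promoter entries. The word was thus common in promoters in general, and a match does not show binding.

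**Figure D3:**
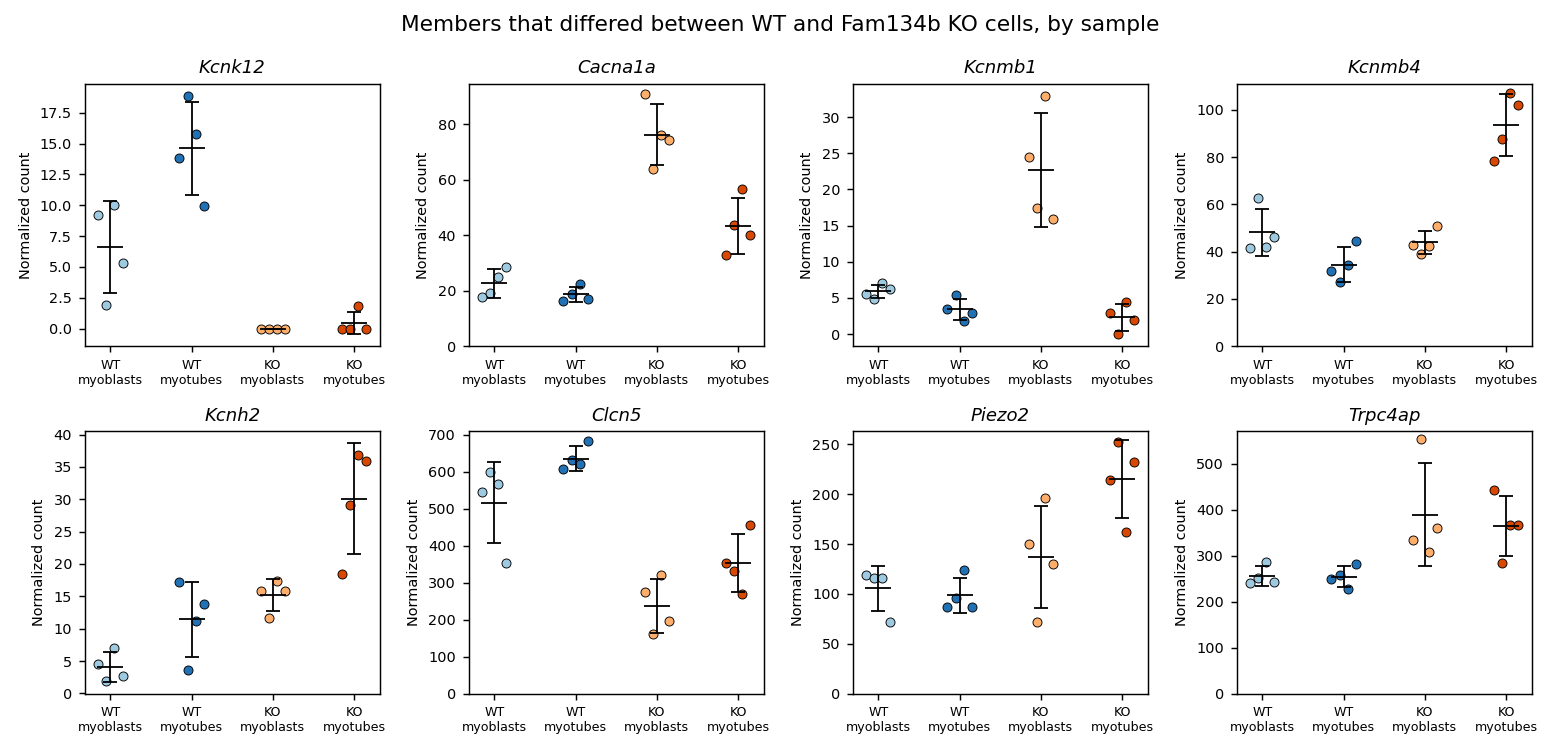
Normalized counts (vertical axis) of 8 members in each sample of the 4 groups (horizontal axis). Points are samples, the wide tick is the group mean and the bars are ± 1 SD (n = 4). Kcnk12 and Clcn5 are lower in both Fam134bKO groups, Cacna1a, Kcnh2 and Trpc4ap are higher, Kcnmb1 is high in Fam134bKO myoblasts, and Kcnmb4 and Piezo2 are high in Fam134bKO myotubes.

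Among pore-forming voltage-gated potassium channel genes, Kcnh2 and Kcnc2 were higher in Fam134bKO myotubes, and Kcnf1, a member through WT samples alone, was lower in Fam134bKO myoblasts. Kcnh2 encodes the hERG channel of cardiac repolarisation. It measured 4.61, 1.93, 7.01 and 2.67 in WT myoblasts and 15.7, 11.6, 17.4 and 15.9 in Fam134bKO myoblasts. In myotubes it measured 17.3, 3.60, 11.2 and 13.9 in WT and 18.4, 29.2, 36.9 and 36.0 in Fam134bKO cells. The genotypes did not overlap at either stage, with WT myotube replicate 2 far below the rest of its group. Kcnh2 was higher in Fam134bKO myoblasts by 1.77 ± 0.43 on the log2 scale (limma, adjusted p = 0.00582) and in Fam134bKO myotubes by 1.44 ± 0.43 (limma, adjusted p = 0.0189), the latter lost without WT myotube replicate 2 (1.01, adjusted p = 0.0716) and without both shallowest Fam134bKO myotube samples (1.29, adjusted p = 0.0813). Its rise in WT cells, 1.24 ± 0.43 (limma, adjusted p = 0.0409), was not called in 9 of the 16 fits that left out 1 sample, those without WT myoblast replicates 1, 2 or 4, WT myotube replicates 1, 3 or 4, or Fam134bKO myoblast replicates 1, 3 or 4 (adjusted p = 0.0506 to 0.149). Its change in Fam134bKO cells was 0.91 ± 0.43 (limma, adjusted p = 0.107).

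Kcnc2, which encodes the fast-gating channel Kv3.2 of neurons, measured 2.77 to 7.13 in myoblasts and 5.58 to 19.0 in myotubes of the WT, and 5.81 to 13.9 and 16.1 to 38.0 in those of Fam134bKO cells. It rose in Fam134bKO cells by 1.396 ± 0.42 (limma, adjusted p = 0.0147), without overlap. It was higher in Fam134bKO than in WT myotubes by 1.27 ± 0.42 (limma, adjusted p = 0.0337), where WT replicate 1 reached into the Fam134bKO range. That call was lost without WT myotube replicates 2, 3 or 4 or Fam134bKO myotube replicates 3 or 4 (adjusted p = 0.0639 to 0.117). Because Kcnc2 was a member mainly through the 4 Fam134bKO myotube samples, both directions are partly set by the choice of members. Kcnf1 encodes a subunit that forms no channel alone and modifies Kv2 channels. It measured 17.5, 11.6, 20.01 and 12.5 in WT myoblasts and 4.37, 4.15, 3.47 and 7.51 in Fam134bKO myoblasts, without overlap, and fell by 1.49 ± 0.39 (limma, adjusted p = 0.00998). Since all 4 WT myoblast samples and no Fam134bKO sample admitted Kcnf1, this direction is partly set by the choice of members. In myotubes its ranges were 7.43 to 13.9 and 2.92 to 6.78, and the difference of -0.89 was not called (limma, adjusted p = 0.103).

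The accessory beta subunits Kcnab2 and Kcnab3 bind to the cytoplasmic face of Kv1 channels. Kcnab2 measured 65.6, 44.0, 45.1 and 64.2 in Fam134bKO myoblasts and 14.5, 30.6, 18.9 and 32.0 in Fam134bKO myotubes, and fell by 1.20 ± 0.30 on differentiation (limma, adjusted p = 0.00357). In WT cells its ranges overlapped, with 27.0 to 63.3 in myoblasts and 28.5 to 38.1 in myotubes, and the change was -0.36 (limma, adjusted p = 0.403). Kcnab3 was 13.8 ± 3.81 in WT myoblasts and 5.36 ± 2.87 in Fam134bKO myoblasts, whose replicate 1 (9.62) lay inside the WT range. It fell by 1.27 ± 0.39 (limma, adjusted p = 0.0292), a call lost without WT myoblast replicates 1, 2 or 4 or Fam134bKO myoblast replicates 2, 3 or 4 (adjusted p = 0.0562 to 0.0978). Since WT samples alone admitted Kcnab3, this direction is partly set by the choice of members.

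The K2P family carries the background potassium current, and only Kcnk12 of its 3 members was called. Kcnk12, on chr17:87745801-87797994 (mm10, minus strand), encodes THIK-2, a subunit with very little current of its own. It measured 9.23, 1.93, 10.0 and 5.35 in WT myoblasts and 13.8, 18.9, 15.8 and 9.91 in WT myotubes. All 4 Fam134bKO myoblast samples had no read, and Fam134bKO myotubes measured 0, 0, 1.80 and 0. No Fam134bKO sample overlapped a WT sample. Against the floor of 3 reads per library, Kcnk12 was at least 2.59-fold lower in Fam134bKO than in WT myoblasts, and WT myotubes were 24.5-fold above Fam134bKO myotubes by reads (64 against 2 reads, 95% exact binomial interval 6.50 to 206, counting error only). limma called both differences, with adjusted p = 0.00121 in myoblasts and adjusted p = 0.000102 in myotubes. Since 4 WT samples and no Fam134bKO sample admitted Kcnk12, this direction is partly set by the choice of members. Kcnk2 (TREK-1, a stretch-sensitive channel) ranged from 8.76 to 31.5 over all samples. Kcnk5 (TASK-2, sensitive to pH) averaged 12.7 and 14.96 in WT myoblasts and myotubes and 5.34 and 6.75 in the Fam134bKO groups, with overlapping samples, and its log2 differences of -1.35 and -1.52 were not called (limma, adjusted p = 0.195 and 0.105).

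The calcium-activated potassium channel genes include subunits whose changes ran in opposite directions. The large-conductance (BK) channel has its pore from Kcnma1, which stayed at or below 6.30 in every sample and was no member, and has its gating set by beta subunits. Kcnmb1, the beta1 subunit of smooth muscle (chr11:33963013-33973641, mm10, plus strand), measured 24.5, 17.4, 33.0 and 15.9 in Fam134bKO myoblasts and 2.904, 0, 4.50 and 1.998 in Fam134bKO myotubes. WT samples measured 5.54, 4.82, 7.01 and 6.24 in myoblasts and 3.45, 5.40, 1.86 and 2.97 in myotubes. Fam134bKO myoblasts lay above all other samples, which is also what made Kcnmb1 a member. On differentiation in Fam134bKO cells it fell by 3.01 ± 0.49 on the log2 scale (limma, adjusted p = 8.25e-05) and was higher in Fam134bKO than in WT myoblasts by 1.73 ± 0.49 (limma, adjusted p = 0.0185), a call lost without WT myoblast replicate 2 or Fam134bKO myoblast replicates 1 or 3 (adjusted p = 0.0511 to 0.0804). The difference of the changes was -2.32 (95% interval -3.77 to -0.86, limma, adjusted p = 0.0735) and was called without Fam134bKO myotube replicate 3 (-2.63, adjusted p = 0.0342) or with a pseudocount of 5 (-1.52, adjusted p = 0.0245). The smooth muscle marker list summed to 7983 to 9163 in WT and 7712 to 13987 in Fam134bKO myoblasts, and to 5478 to 9351 and 5441 to 13142 in the respective myotubes, with most of each sum from Acta2. On differentiation in Fam134bKO cells, where Kcnmb1 fell, Cnn1 of that list fell by 2.49 and Tagln fell by 1.49 (limma, adjusted p = 1.63e-05 and 9.25e-05), and in WT cells they fell by 2.64 and by 1.76 (limma, adjusted p = 1.66e-05 and 3.00e-05). Acta2 was called in neither (-0.01 and -0.18, limma, adjusted p = 0.976 and 0.67). In myoblasts, where Kcnmb1 was higher in Fam134bKO cells, Tagln went the other way (-0.84, limma, adjusted p = 0.0226). Cnn1 and Acta2 were not called there (0.23 and 0.29, limma, adjusted p = 0.736 and 0.546). The part of these markers in the Kcnmb1 values was not tested.

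Kcnmb4, the beta4 subunit known from neurons (chr10:116417861-116473878, mm10, minus strand), measured 41.5, 62.7, 42.0 and 46.3 in WT myoblasts and 31.9, 27.0, 34.4 and 44.6 in WT myotubes. In Fam134bKO cells it measured 42.9, 39.0, 42.5 and 50.9 in myoblasts and 78.4, 87.6, 107 and 102 in myotubes. The Fam134bKO myotubes lay above all other samples, and the 2 myoblast groups overlapped. Kcnmb4 rose in Fam134bKO cells by 1.08 ± 0.22 (limma, adjusted p = 0.000704), while the change in WT was -0.47 ± 0.22 (limma, adjusted p = 0.123). The difference of the changes was 1.55 ± 0.31 (limma, adjusted p = 0.00516), and in myotubes Kcnmb4 was higher in Fam134bKO cells by 1.43 ± 0.22 (limma, adjusted p = 7.46e-05). Of its exon bases, 49.3% are shared with the antisense gene Kcnmb4os2, which measured at most 9.13 in any sample, and 26% with Kcnmb4os1, which measured 0. The sources used here do not say whether counting used strand, so reads from a gene and its antisense partner cannot be told apart. The neuronal marker list summed to 571 to 625 in WT and 350 to 419 in Fam134bKO myotubes, and its defining marker Rbfox3 was at 0. Within that sum Stmn2 was lower in Fam134bKO myotubes, with means of 524 in WT and 179 in Fam134bKO cells. Map2 moved the other way, as Kcnmb4 did, with means of 66.5 in WT and 212 in Fam134bKO myotubes, and rose by 0.70 on differentiation in Fam134bKO cells (limma, adjusted p = 0.00811). The part of these markers in the Kcnmb4 values was not tested.

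The other calcium-activated members open at submicromolar calcium without voltage. Kcnn4 (the intermediate-conductance channel) measured 129.6 ± 52.1 in WT myoblasts, 129 ± 24.9 in WT myotubes, 96.1 ± 19.0 in Fam134bKO myoblasts and 125 ± 38.3 in Fam134bKO myotubes. The groups overlapped and no comparison was called. Kcnn1 (a small-conductance channel) ranged from 2.89 to 30.0 and was not called either.

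The Clcn members are chloride and proton exchangers of intracellular membranes. Clcn5, best known from endosomes of the kidney tubule (chrX:7153810-7319358, mm10, minus strand), measured 545, 599, 568 and 355 in WT myoblasts and 275, 161, 322 and 196 in Fam134bKO myoblasts. In myotubes it measured 607, 632, 623 and 684 in WT and 352, 333, 269 and 458 in Fam134bKO cells. The genotypes did not overlap at either stage. Clcn5 fell by 1.14 ± 0.21 on the log2 scale in Fam134bKO myoblasts (limma, adjusted p = 0.0005) and by 0.87 ± 0.21 in Fam134bKO myotubes (limma, adjusted p = 0.00486). Its rise on differentiation in Fam134bKO cells, 0.59 ± 0.21 (limma, adjusted p = 0.0362), was not called without Fam134bKO myoblast replicates 2 or 4 or Fam134bKO myotube replicates 1 or 4 (0.42 to 0.58, adjusted p = 0.0666 to 0.129).

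Clcn7, the exchanger of lysosomes, measured 50.7, 51.1, 54.0 and 30.3 in WT myoblasts and 104, 88.2, 58.5 and 87.2 in WT myotubes. In Fam134bKO cells it measured 37.6, 39.8, 51.2 and 36.7 in myoblasts and 207, 178, 114 and 69.9 in myotubes. Every myotube sample lay above the myoblasts of its genotype. The rise was 1.65 ± 0.29 in Fam134bKO cells (limma, adjusted p = 0.000159) and 0.85 ± 0.29 in WT (limma, adjusted p = 0.0379). The WT call was lost without any WT myoblast replicate or without WT myotube replicates 1, 2 or 4 (0.66 to 0.93, adjusted p = 0.0519 to 0.145). Fam134bKO and WT myotubes overlapped, with a difference of 0.66 (limma, adjusted p = 0.107) that was called without Fam134bKO myotube replicate 4 (0.96, adjusted p = 0.0117). Clcn3, Clcn4-2 and Clcn6, exchangers of endosomes, were called in no comparison and ranged from 32.5 to 92.4, 73.5 to 194 and 22.4 to 78.8 over all samples.

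**Figure D4:**
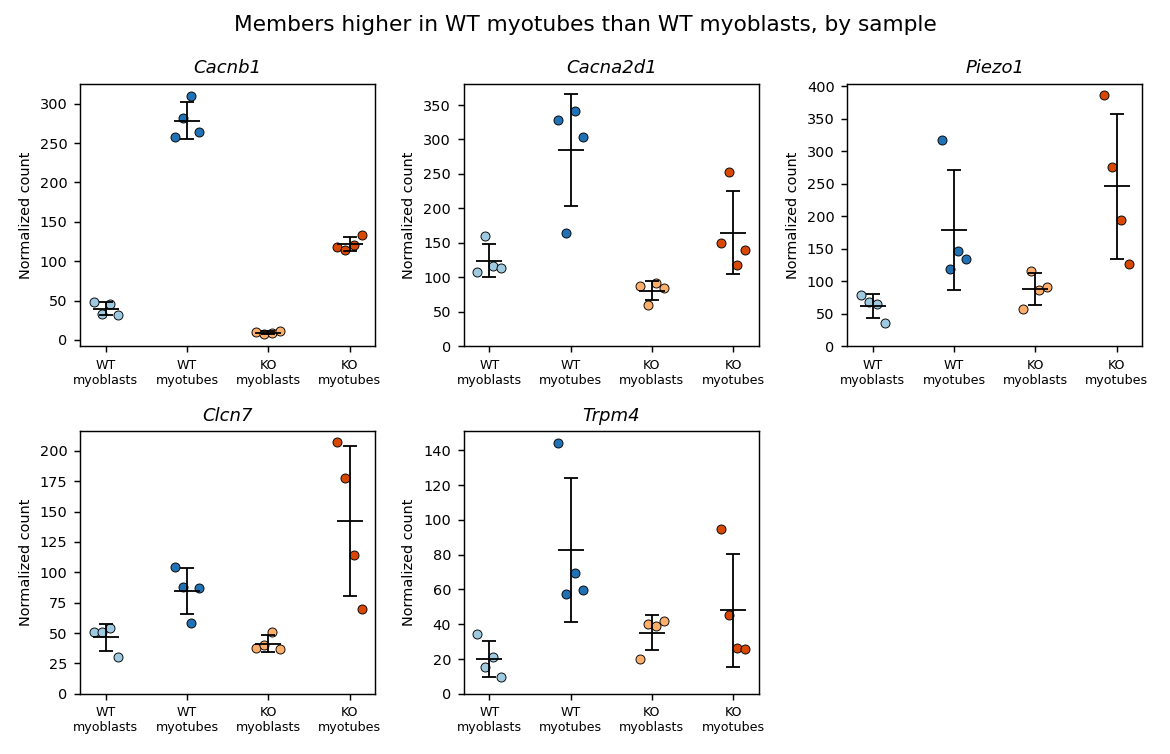
Normalized counts (vertical axis) of 5 members that rose in WT myotubes, in each sample of the 4 groups (horizontal axis). Points are samples, the wide tick is the group mean and the bars are ± 1 SD (n = 4). Cacnb1 separates all groups, Piezo1 and Trpm4 have 1 high WT myotube sample each (317 and 144), and Trpm4 overlaps between the Fam134bKO groups.

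The mechanosensitive Piezo channels pass cations when the membrane is stretched, and Piezo1 is known to act in myoblast fusion. Piezo1 measured 78.4, 68.5, 65.0 and 35.6 in WT myoblasts and 317, 118, 147 and 134 in WT myotubes. In Fam134bKO cells it measured 57.7, 116, 86.8 and 90.1 in myoblasts and 386, 276, 194 and 126 in myotubes. Myotubes lay above the myoblasts of their genotype without overlap. The log2 rise was 1.45 ± 0.34 in WT (limma, adjusted p = 0.00362) and 1.398 ± 0.34 in Fam134bKO cells (limma, adjusted p = 0.00296). The difference of the rises was -0.06 with a 95% interval from -1.04 to 0.93, which does not show that they were equal. Of its exon bases, 12% are shared with the antisense-lying gene Ctu2, which measured 52.0 to 96.7 in WT myotubes.

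Piezo2, the channel of touch and proprioception, measured 87.2, 96.3, 124 and 87.2 in WT myotubes and 214, 252, 162 and 232 in Fam134bKO myotubes, without overlap. The difference was 1.11 ± 0.25 on the log2 scale (limma, adjusted p = 0.00274). In myoblasts the groups overlapped, with 72.2 to 119 in WT and 72.2 to 196 in Fam134bKO cells (limma, adjusted p = 0.469). Its rise on differentiation in Fam134bKO cells, 0.71 ± 0.25 (limma, adjusted p = 0.0331), was lost without Fam134bKO myoblast replicates 2 or 4 or Fam134bKO myotube replicates 1, 2 or 4 (0.44 to 0.72, adjusted p = 0.0604 to 0.136), the value of 0.44 being that without Fam134bKO myoblast replicate 2.

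Of the TRP channels, Trpm4 was called once. It encodes a channel for monovalent cations that opens with intracellular calcium, and measured 34.1, 15.4, 21.0 and 9.80 in WT myoblasts and 144, 57.6, 69.7 and 59.4 in WT myotubes. In Fam134bKO cells it measured 20.1, 39.8, 39.0 and 41.7 in myoblasts and 94.9, 45.2, 26.1 and 26.0 in myotubes. The WT groups did not overlap, while the Fam134bKO groups did. The change was 2.01 ± 0.41 in WT (limma, adjusted p = 0.0014) and 0.28 ± 0.41 in Fam134bKO cells (limma, adjusted p = 0.632). The difference of these changes, -1.73 (95% interval -2.95 to -0.51), was not called (limma, adjusted p = 0.114). It was called without Fam134bKO myotube replicate 1 (-2.12, adjusted p = 0.0305), as was the genotype difference in myotubes (-1.26, adjusted p = 0.0267, against 0.135 with all samples). Trpm7, a channel joined to a kinase, and Trpv2, a channel of muscle and immune cells, were called in no comparison and ranged from 28.8 to 109 and from 5.21 to 22.4.

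Trpc4ap, the binding protein caught by its name, measured 239.9, 252, 287 and 242 in WT myoblasts and 334, 554, 309 and 360.4 in Fam134bKO myoblasts, and 228 to 282 and 285 to 443 in the respective myotubes. The genotypes did not overlap at either stage. The difference was 0.57 ± 0.18 in myoblasts (limma, adjusted p = 0.0314), lost without WT myoblast replicates 1, 2 or 4 or Fam134bKO myoblast replicates 2 or 4 (0.39 to 0.60, adjusted p = 0.0561 to 0.122). In myotubes it was 0.51 ± 0.18 (limma, adjusted p = 0.0442) and was lost in 13 of the 16 fits that left out 1 sample, kept only without Fam134bKO myoblast replicates 2 or 3 or Fam134bKO myotube replicate 2 (adjusted p when lost 0.0525 to 0.126). Kcnq1ot1 ranged from 16.9 to 127 and was not called.

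**Figure D5:**
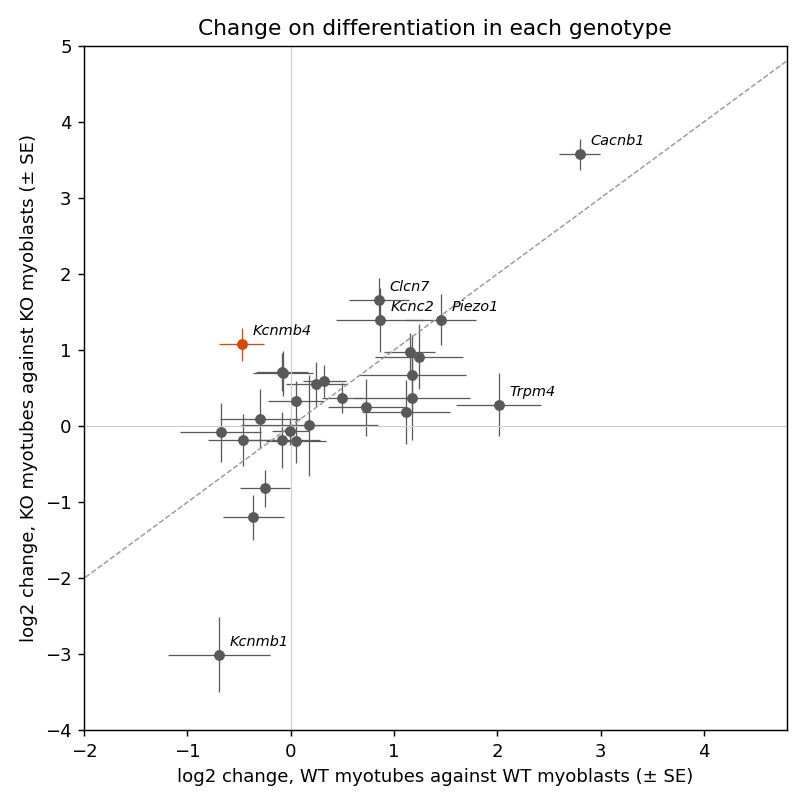
log2 change on differentiation in WT cells (horizontal axis) against that in Fam134bKO cells (vertical axis) for the 28 members, with ± 1 SE bars and a dashed line of equal change. The orange point is Kcnmb4 (-0.47 and 1.08), for which the difference was called. The remaining members are grey and were not called for a difference.

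A list of 87 other ion transport genes (pumps, cotransporters, store-operated channels, subunits of volume-regulated anion channels and channel partners) gave 47 genes tested. On differentiation 19 of these rose (40.4%) and 0 fell in WT cells by limma, against 13.8% and 9.16% of all genes, and 23 rose (48.9%) and 1 fell (2.13%) in Fam134bKO cells, against 17.3% and 16.1%, with median log2 changes of 0.78 and 0.92. Between genotypes 2 were higher (4.26%) and 9 lower (19.1%) in Fam134bKO myoblasts, against 7.26% and 8.5% of all genes, and 4 were higher (8.51%) and 10 lower (21.3%) in Fam134bKO myotubes, against 9.74% and 13.7%, with medians of -0.14 and -0.09. The store-operated calcium entry genes Orai1 and Stim1 rose by 1.20 and 1.44 in WT cells (limma, adjusted p = 0.00122 and 0.00156). Cacng1, the gamma1 subunit of the muscle calcium channel, averaged 166 in WT and 20.5 in Fam134bKO myoblasts, and 521 and 276 in the respective myotubes. Cacng1 and Lrrc8b, a volume-regulated anion channel subunit, were the 2 genes of this list called in the interaction, with differences of 2.07 (limma, adjusted p = 0.000195) and 2.31 (limma, adjusted p = 0.00176).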

How the data were processed

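The authors sequenced libraries of a commercial digital mRNA service as single-end reads, and deposited 1 table of log2 values per gene for 16 samples. The submitters' processing notes name STAR 2.6.0a, HTSeq and the build mm10, while the tool behind the normalization, and whether counting used strand, are not given in the sources used here. The deposited log2 values are log2(normalized count + 1), since values taken back to the linear scale were whole multiples of a fixed step in each sample for 100% of entries above 0 (within 0.001 of the number of reads). Reads recovered in this way served for depth and floors, and precision is limited by 1484750 to 3287461 reads per sample. Intervals on reads cover counting error only.

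Groups were set from the sample titles, with 4 samples each. The 10767 genes that reached 10 normalized counts in 4 or more samples were fitted with limma 3.58.1 (R 4.3.3, 4 group means, trended variance), p-values were adjusted by Benjamini-Hochberg over all of them, and members were read from this fit. The deposited log2 values were used without a further log. The fit was tested on simulated data. Each comparison names the 6 largest changes in each direction (4 for the interaction) and a set list of channel genes, and the other members are given by range. Members, lists and tests were chosen with earlier results of these data known. Replicates of a group differed by more than sampling noise, and no batch is given in the labels. Whether biological replicates were separate cultures is not said, so p-values measure the spread between these samples. That spread is 1 value per gene, pooled over the 4 groups, which differed in spread. Correlations between replicates ran from 0.968 to 0.979 in WT myoblasts and from 0.879 to 0.950 in Fam134bKO myotubes. With the 8 samples compared alone, calls between genotypes went from 15.8% to 24.7% of all genes in myoblasts. In myotubes they went from 23.4% to 14.5%. 4 genes that match the symbol rule and 1 other ion transport gene are not reported here, and counts over the members leave them out. Gene positions and exons come from GENCODE M21 and promoters from RefSeq (GRCm38.p6). Alternatives covered pseudocounts, filters, scalings, sample weights, a replicate block, the 8 samples of a comparison alone, leaving out each sample and, chosen after seeing the data, leaving out both shallowest samples. Marker lists were summed per sample; the fibroblast list came to 2260 to 24910 and included Col1a1, the glial list to at most 19.98, the cardiomyocyte list to at most 69.1, the adipocyte list to at most 89.2, the bone and cartilage list to 295 to 1103, the macrophage list to at most 24.2 and the proliferation list to 711 to 4161.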

Additional observations from a re-analysis of the deposited data

Results flagged for a closer look

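The change on differentiation differed between genotypes for Kcnmb4 (1.55 on the log2 scale, Fam134bKO minus WT) by limma's test of the interaction. In 9 of the 91 groups of 4 values examined, 1 sample stood apart from the other 3 by Dixon's criterion at the 95% level, where chance gives about 5%, or 1 in 20 groups. In WT myoblasts, replicate 2 was high for Cacna2d1 (159, the other 3 from 108 to 116), and replicate 4 was low for Clcn7 (30.3, the others 50.7 to 54.0) and for Piezo2 (72.2, the others 116 to 119). In WT myotubes, replicate 1 was high for Piezo1 (317, the others 118 to 147) and for Trpm4 (144, the others 57.6 to 69.7), and replicate 4 was high for Kcnf1 (13.9, the others 7.43 to 8.10). In Fam134bKO myoblasts, replicate 1 was high for Kcnab3 (9.62, the others 3.34 to 4.34) and low for Trpm4 (20.1, the others 39.0 to 41.7). In Fam134bKO myotubes, replicate 3 held both Kcnk12 reads of its group (1.80, the others 0).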

How the results depend on the processing

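No called value of a member changed sign under any of 27 alternatives, but many of these cannot change a log2 value, so there the sign was not tested. Median-ratio scaling gave the same medians and counts of calls over all genes as the main fit. For pairwise comparisons, another filter, the 8 samples alone, the replicate block or leaving out a sample outside the comparison can alter only the error and p-value. Of the 37 calls on single named members, 25 held under every alternative that gave a value. Leaving out 1 sample at a time gave 4 to 7 members called for WT differentiation, 9 to 12 for Fam134bKO differentiation, 6 to 9 in myoblasts, 7 to 11 in myotubes and 1 to 2 for the interaction; the log2 difference of Fam134b ran from -3.01 to -2.76 (myoblasts) and from -2.67 to -2.29 (myotubes). Requiring a normalized count of 50 left fewer members to test and 4 calls in myoblasts. The 8 myotube samples alone gave 6 calls, where 14.5% of all genes were called against 23.4% in the main fit. Sample weights and a pseudocount of 5 each gave 2 interaction calls, adding Kcnmb1 (-1.85, adjusted p = 0.0462, and -1.52, adjusted p = 0.0245). Quantile normalization gave 4 members higher and 3 lower, against 6 and 0, for WT differentiation, the lower ones being Kcnmb1 (-1.51), Kcnf1 (-1.15) and Kcnmb4 (-0.63), and no scaling moved the median of all genes by over 0.1. Samples that share a replicate number showed little joint deviation (mean correlation 0.033, from -0.223 to 0.369), and whether the number pairs them is not given. With the replicate block the counts were 7, 11, 9, 9 and 1, and Trpc4ap in myotubes was not called (adjusted p = 0.061). Further calls on single members were lost without a filter (6), in fits of the 8 samples compared alone (7), with quantile normalization (3), with total scaling (3) and with sample weights (2). The cause was not tested. Without both shallowest samples the counts were 7, 9, 10, 10 and 1, with 4 calls on named members lost and 3 gained. Besides Kcnh2 in myotubes, the lost calls were Kcnc2 in myotubes (1.23, limma, adjusted p = 0.0747) and 2 rises in Fam134bKO cells. These were the rises of Clcn5 (0.42, limma, adjusted p = 0.207) and Piezo2 (0.52, limma, adjusted p = 0.196). Depth limits Kcnk12, Kcnmb1 and other members under about 10 normalized counts.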
